A study of Mus musculus with 32 samples.

Results

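The genes described here were 38 genes of the NRF2, glutathione and antioxidant system, measured as messenger RNA in mouse bone marrow-derived macrophages. They were taken by symbol from a count table of 56953 genes, and each of the 38 symbols matched 1 gene identifier. All 38 passed the filter on low counts, among 14427 genes that did. The libraries came from macrophages that had been grown from marrow in M-CSF from L929 supernatant, on a C57BL/6J background. The design crossed 2 genotypes of Acod1 (also called Irg1), wild type (WT) and knockout (KO), with 4 treatments of 24 h. The treatments were none (control), 100 nM of the synthetic glucocorticoid dexamethasone, 100 ng of bacterial lipopolysaccharide (LPS; the labels give no volume), and dexamethasone plus LPS. Each of the 8 groups held 4 libraries, 32 in all. The labels name 3 kinds of marrow donor, C57BL/6J, Irg1+/+ and Irg1-/- mice from more than 1 supplier, without saying which served as WT, and they do not describe the deleted part of Acod1. The study asked how glucocorticoids act against inflammation in LPS-treated macrophages and what Irg1 adds to this.

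NRF2, encoded by Nfe2l2, is a transcription factor that raises genes of glutathione synthesis, thioredoxin and peroxiredoxin recycling, heme breakdown and NADPH supply. In resting cells KEAP1 holds NRF2 for degradation, and electrophiles or oxidants that modify KEAP1 cysteines release it to bind antioxidant response elements with small MAF partners. ACOD1 makes itaconate, and itaconate derivatives are among the electrophiles known to modify KEAP1. Several of the genes, such as Sod2 and Slc7a11, are also known to answer to NF-kappaB, ATF4 or other factors.

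Libraries held 17559079 to 25049200 counted read pairs, and the 38 genes took 0.667% to 2.84% of them. Whether the 4 replicates of a group were separate mice is not in the labels, and p-values then measure only how far these libraries differ, which may be partly technical. WT LPS replicate 3 stood apart: its pairs with the other WT LPS libraries gave a chi-square per degree of freedom of 16.7 to 17.4, while all other replicate pairs gave 2.02 to 5.725. Calls that are lost or gained without it are named with the comparisons it enters. File paths in the count table's header place all WT libraries in sequencing lane 3 and all KO libraries with LPS in lane 2, so genotype and lane cannot be told apart for KO against WT under LPS. The KO control group had 3 libraries in lane 3 and 1 merged library, and the KO dexamethasone group had 3 in lane 3 and 1 in lane 2. Within KO, LPS and lane therefore cannot be told apart where LPS, alone or with dexamethasone, is set against control. Summed macrophage markers (10 of 10 detected, led by Lyz2) stood at 17880 to 31850 CPM (reads of a gene per unit of TMM-scaled sequencing depth). Summed erythroid markers reached at most 0.852 CPM and T and NK cell markers 0.374 CPM. Markers of other cell types moved with treatment: the B cell sum, mostly Ighm, stood at 75.6 to 106.9 CPM in control, 41.5 to 54.96 CPM with dexamethasone and at most 3.77 CPM in groups with LPS. The mast cell sum, led by Kit, stood at 14.4 to 25.8 CPM in control and at most 2.90 CPM in the other groups. The dendritic cell sum stood at 13.8 to 17.3 CPM with dexamethasone, led by Flt3, at 9.31 to 13.85 CPM with LPS, led by Ccr7, and at most 1.90 CPM in control. Their part in the results was not tested. Acod1 RNA was counted in KO libraries at 4.71 to 6.31 CPM in control and 4898 to 5187 CPM with LPS, against 8.44 to 11.5 and 6125 to 6675 CPM in WT, and such counts over the whole gene do not check the knockout label.

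**Figure D1:**
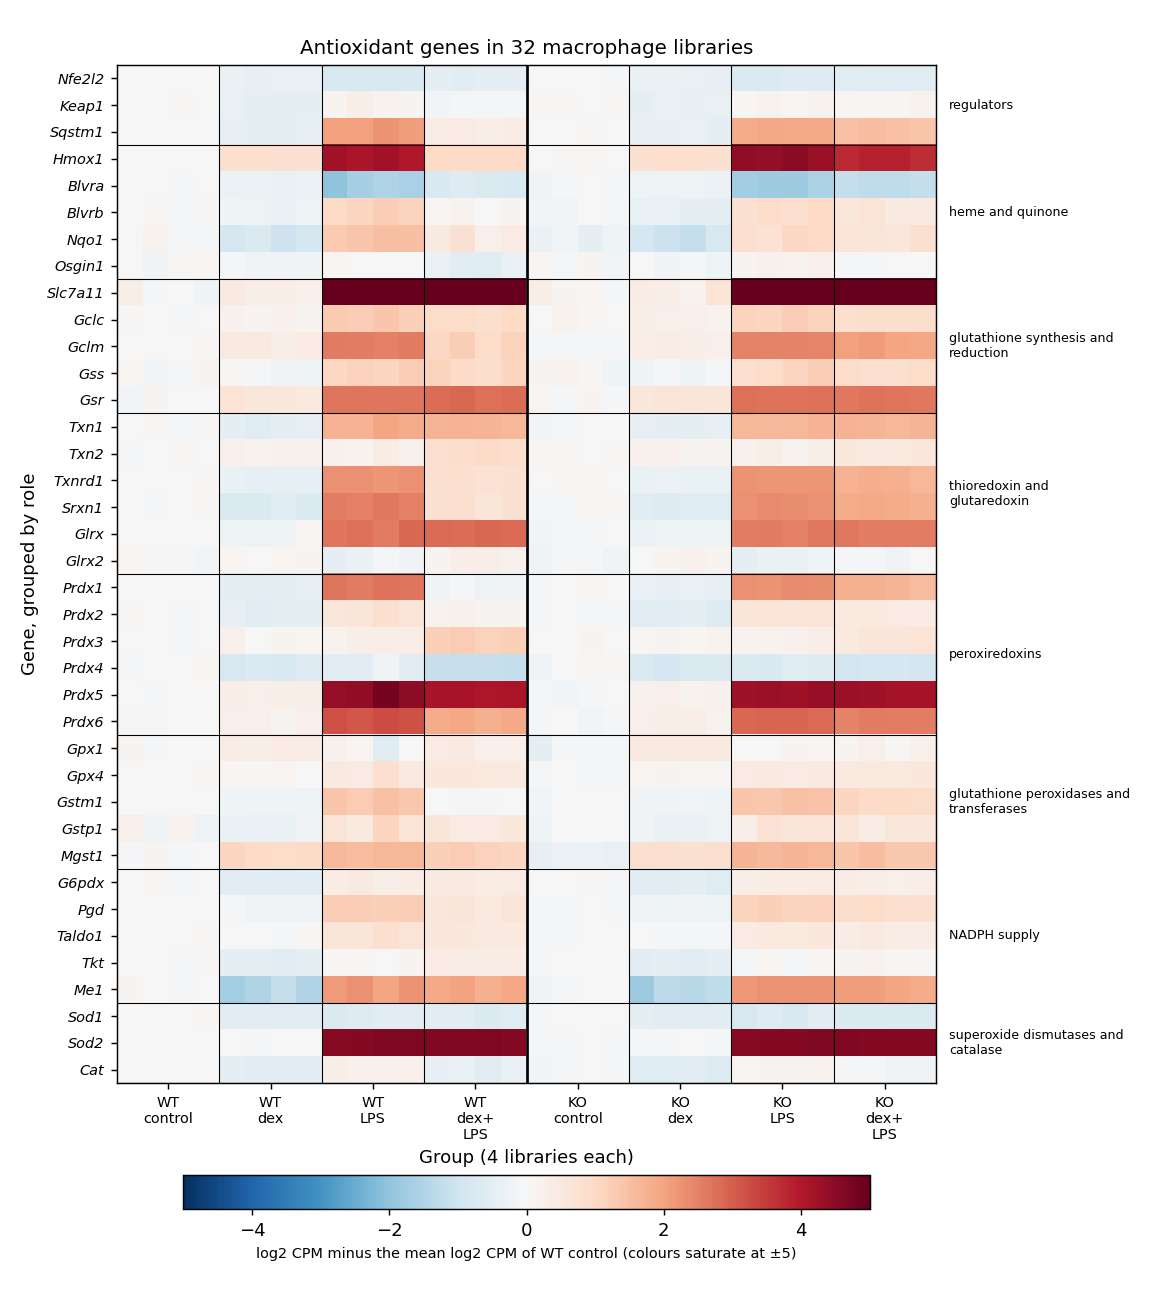
Heat map of the 38 genes (rows, by role) in the 32 libraries (columns, by group). Color is the log2 CPM of a library minus the gene's mean log2 CPM over the 4 WT control libraries, and colors saturate at 5 in either direction; in the Hmox1 row the WT dexamethasone plus LPS libraries (655 to 673 CPM) sit far below the KO ones (4327 to 4833 CPM).

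The antioxidant response element core was searched for first, since it is the site through which NRF2 acts. The letters TGACNNNGC were sought on both strands in the 250 bases before each gene's start in RefSeq promoters of build GRCm38.p6. Promoters were listed for 34 of the 38 genes, and those of Gclc, Gsr, Hmox1 and Prdx6 were not. The core was found in 8 of the 34 (23.5%), Blvra, G6pdx, Gclm, Mgst1, Nfe2l2, Prdx1, Sod1 and Txnrd1, and in 3112 of 27025 promoters of all genes (11.5%). The sequences below are those of Nfe2l2 itself, of Mgst1, the gene that differed between genotypes without LPS, and of 3 further genes. LPS raised these 3, and they were lower with dexamethasone plus LPS than with LPS alone. The core is in capitals, and the gene's own strand is read 5′ to 3′. In Nfe2l2 the core reads forward, and in the others it reads in reverse, as GCNNNGTCA. For Prdx1 the whole searched window is printed. Its core holds the letters TGACTCA on the reverse strand, which are also those of the AP-1 site, so the 2 motifs overlap there.
Prdx1, chr4:116685349-116685598, plus strand: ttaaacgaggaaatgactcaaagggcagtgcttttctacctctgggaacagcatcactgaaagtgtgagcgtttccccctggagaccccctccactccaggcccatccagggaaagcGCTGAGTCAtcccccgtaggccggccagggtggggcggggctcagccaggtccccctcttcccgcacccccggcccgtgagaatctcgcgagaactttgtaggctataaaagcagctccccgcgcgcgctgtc
Gclm, chr3:122245403-122245451, plus strand: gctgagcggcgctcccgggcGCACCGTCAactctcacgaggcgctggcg
Txnrd1, chr10:82859094-82859142, plus strand: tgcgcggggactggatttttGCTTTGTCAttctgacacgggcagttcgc
Mgst1, chr6:138140451-138140499, plus strand: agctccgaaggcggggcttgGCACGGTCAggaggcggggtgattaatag
Nfe2l2, chr2:75704875-75704913, minus strand: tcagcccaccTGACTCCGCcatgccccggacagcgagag
The core begins 133 bases before the start in Prdx1, 134 in Gclm, 92 in Txnrd1, 56 in Mgst1 and 240 in Nfe2l2. The genes that hold it did not move one way: under LPS in WT cells dexamethasone lowered Prdx1, Gclm, Txnrd1 and Mgst1, raised Blvra and Nfe2l2, and did not change G6pdx or Sod1 past the threshold. A match describes letters in the window and not a bound site.

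Levels were compared between genes per kilobase of exon, with the annotated exons of a gene summed. On that scale Prdx1 was the highest of the 38 genes in WT control cells, at 404 CPM per kb. Sqstm1 at 222 and catalase (Cat) at 213 followed. The lowest was Slc7a11 at 0.367 CPM per kb. With LPS the order changed, and Hmox1 led at 3318 CPM per kb in WT and 4103 in KO. With dexamethasone plus LPS the genotypes had different leading genes: Prdx5 at 699 CPM per kb in WT, where Hmox1 stood at 379, and Hmox1 at 2625 in KO. That rank depends on the exon length: in plain CPM, Sod2 stood above Prdx5 in that WT group (means 1675 and 1495). The genes cover 0.367 to 4103 CPM per kb over the 8 groups, so they are not of like abundance.

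LPS raised most of the antioxidant genes in WT macrophages. Of the 38 genes, 31 rose and 5 fell after 24 h of LPS, against control. Over all genes tested 75.7% passed the same threshold (an adjusted p under 0.05, edgeR's quasi-likelihood test with Benjamini-Hochberg adjustment), 37.4% upward and 38.3% downward. The median log2 fold change was 1.17 over the 38 genes and -0.02 over all genes. KO cells gave the same split, 31 higher and 5 lower, against 76.1% of all genes called, 36.8% higher and 39.3% lower. In KO, unlike in WT, the LPS and control libraries were in different lanes, apart from the merged control library. In bulk RNA, fewer cells of a type and less RNA per cell cannot be told apart. Where groups of libraries are said below not to overlap, the share of all genes with such separation was not counted. The separation therefore describes a gene and does not set it apart from other genes.

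The regulators moved in different directions with LPS. Nfe2l2 itself, in the order of the replicates, stood at 419.6, 425, 426 and 421 CPM in WT control and at 248, 243, 240.1 and 247 CPM with LPS. All LPS libraries lay below all control libraries, and the log2 fold change was -0.79 ± 0.029 (SE, n = 4 per group). In KO the change was -0.67 ± 0.029, from 407 to 431 to 255 to 272 CPM. Keap1, its repressor, stood at 87.3, 88.05, 91.6 and 88.9 CPM in WT control and 98.5, 109.9, 101 and 96.6 CPM with LPS. Its small rise of 0.19 ± 0.039 in WT depended on the scaling. In KO it did not pass the threshold (0.076, adjusted p = 0.071), and that too depended on the scaling, as given below. Sqstm1 encodes p62, a selective autophagy receptor that can displace KEAP1 from NRF2. Its libraries stood at 739.9, 736, 756 and 744 CPM in WT control and 3052, 3061, 3533 and 3131 CPM with LPS. Every LPS library lay above the control libraries, with replicate 3 the highest, and the log2 fold change was 2.10 ± 0.035 with that library and 2.05 without it. In KO it went from 743 to 778 to 2716 to 2819 CPM, a change of 1.88 ± 0.035.

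Heme breakdown split between its steps. Hmox1 (chr8:75820249-75827217 in the count table, whose GENCODE vM32 positions belong to a later build than the promoters above) encodes heme oxygenase, which opens heme to biliverdin. It stood at 329.9, 339, 328 and 342 CPM in WT control and 6101, 5660.0, 6094 and 5382 CPM with LPS, 17.4-fold higher (log2 4.12 ± 0.041, adjusted p = 4.33e-53). In KO it stood at 340.1, 352, 354 and 333 CPM in control and 7319, 7078, 7584 and 6756 CPM with LPS, a log2 change of 4.38 ± 0.042. No LPS library came near a control library of its genotype. The biliverdin reductases, which take the next step to bilirubin, went opposite ways. Blvra stood at 127, 127, 121 and 125 CPM in WT control and fell to 30.99, 39.4, 42.5 and 40.3 CPM with LPS (-1.71 ± 0.053), whereas Blvrb rose from a mean of 117 ± 6.23 to 253 ± 18.5 CPM (SD, n = 4). Nqo1, the quinone reductase that often serves as a readout of NRF2, stood at 12.2, 13.7, 11.4 and 11.3 CPM in WT control and 30.2, 32.1, 34.6 and 34.6 CPM with LPS. The groups did not overlap, and the log2 change was 1.43 ± 0.087 in WT and 1.17 ± 0.090 in KO. Osgin1 did not pass the threshold in WT (0.035, adjusted p = 0.634).

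All 5 genes of glutathione synthesis and reduction rose with LPS in both genotypes. The largest change among the 38 was that of Slc7a11, which encodes the cystine carrier of system xc- that feeds glutathione synthesis. It stood at 6.27, 4.81, 4.98 and 4.38 CPM in WT control and 723, 753, 573 and 773 CPM with LPS, a 138-fold rise (log2 7.10 ± 0.084). In KO it stood at 6.36, 5.57, 5.37 and 4.85 and 616, 571, 582 and 551 CPM (log2 6.72 ± 0.082). The control libraries of both genotypes were near the bottom of the measured range, and WT LPS replicate 3 was the lowest of its group. Gclm, the modifier subunit of glutamate-cysteine ligase, stood at 86.4, 86.1, 85.3 and 90.7 CPM in WT control and 533, 515, 505 and 531 CPM with LPS (log2 2.58 ± 0.045). Its catalytic partner Gclc rose less, from 54.7 ± 2.08 to 133 ± 8.22 CPM (SD, n = 4), log2 1.29. Gsr, which reduces oxidized glutathione with NADPH, stood at 51.5, 61.95, 55.8 and 57.2 CPM in WT control and 366, 361, 357 and 360.1 CPM with LPS (log2 2.67 ± 0.044). Gss, the last enzyme of glutathione synthesis, changed by 1.12 in WT and 0.98 in KO. 

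Among the thioredoxin and glutaredoxin genes 5 of 6 rose. Txnrd1, the cytosolic thioredoxin reductase, stood at 207, 207, 207 and 215 CPM in WT control and 1030.3, 1017, 975 and 1021 CPM with LPS (log2 2.28 ± 0.033). Srxn1, the sulfiredoxin that repairs overoxidized peroxiredoxins, stood at 89.05, 83.5, 86.9 and 92.7 CPM in WT control and 519, 506, 545 and 503 CPM with LPS (log2 2.56 ± 0.044). Glrx, the cytosolic glutaredoxin, stood at 27.2, 27.5, 28.5 and 28.3 CPM in WT control and 177, 186, 170.1 and 202 CPM with LPS (log2 2.72 ± 0.051). No LPS library of these 3 genes came near a control library. Their KO changes were 2.15, 2.32 and 2.65, in the same order. Txn1, cytosolic thioredoxin, changed by 1.83 in WT, while the mitochondrial Txn2 and Glrx2 changed by 0.24 and -0.27.

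The peroxiredoxins, which reduce peroxides with thioredoxin or, for Prdx6, with glutathione, differed widely among themselves. Prdx5, found in mitochondria, peroxisomes and cytosol, stood at 88.7, 84.7, 87.3 and 89.8 CPM in WT control and 1795, 1912, 2428 and 1927 CPM with LPS, 23.01-fold higher. Replicate 3 was the highest of the LPS libraries, and the log2 change was 4.52 ± 0.056 with it and 4.42 without it. Prdx6 stood at 53.95, 58.9, 54.7 and 56.8 CPM in WT control and 521, 478, 534 and 512 CPM with LPS (log2 3.19 ± 0.044). Prdx1 (chr4:116542741-116558019 in the count table), the abundant cytosolic member, stood at 1211, 1252, 1196 and 1253 CPM in WT control and 7894, 7507, 8157 and 7819 CPM with LPS (log2 2.68 ± 0.040). In KO, Prdx1 stood at 1143, 1248, 1314 and 1202 and 5957, 5855, 6273 and 6182 CPM (log2 2.31 ± 0.039). The LPS libraries of Prdx1 in KO lay below all of those in WT. Prdx2 rose by 0.67 and the mitochondrial Prdx3 by 0.29 in WT, and Prdx4, of the endoplasmic reticulum, fell (-0.47). Prdx5 shares 19.1% of its exon bases with the antisense gene Trmt112, and Sqstm1 17.3% with Mrnip, and counting without strand cannot divide such reads.

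Of the glutathione peroxidases and transferases, 4 of 5 rose in WT. Mgst1, a microsomal transferase, stood at 37.7, 43.97, 38.2 and 39.04 CPM in WT control and 121, 117, 127 and 124 CPM with LPS (log2 1.62 ± 0.048). Gstm1, a cytosolic transferase, stood at 189, 187, 189 and 188 CPM in WT control and 496, 458, 521 and 481 CPM with LPS (log2 1.38 ± 0.037). Gstp1 stood at 14.1, 10.3, 13.3 and 9.93 CPM in WT control and 18.1, 16.4, 24.7 and 19.1 CPM with LPS (log2 0.72 ± 0.10; 0.59 without replicate 3). The LPS libraries were above the control libraries for all 3 transferases. Gpx4, which reduces lipid peroxides, changed by 0.55. Gpx1 did not pass the threshold in WT (-0.049, and 0.10 without replicate 3, also not called), and an unnamed antisense gene shares 84% of its exon bases.

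The NADPH enzymes all rose in WT, by unequal amounts. Me1, malic enzyme, stood at 17.6, 15.8, 15.4 and 16.2 CPM in WT control and 70.2, 78.2, 64.3 and 77.05 CPM with LPS (log2 2.15 ± 0.072). Pgd, of the oxidative pentose phosphate branch, stood at 577, 576, 583 and 576 CPM in WT control and 1345, 1344, 1331 and 1362 CPM with LPS (log2 1.22 ± 0.030). Taldo1, of the branch without oxidation, stood at 280.1, 279.7, 277 and 290.2 CPM in WT control and 425, 427, 498 and 452 CPM with LPS (log2 0.68 ± 0.038). None of the 3 had overlapping groups. G6pdx, the entry enzyme of the oxidative branch, changed by 0.37 and Tkt by 0.076.

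The superoxide dismutases parted. Sod2, the mitochondrial manganese enzyme, stood at 66.2, 67.9, 67.2 and 69.00 CPM in WT control and 1581, 1643, 1709 and 1697 CPM with LPS, 24.5-fold higher (log2 4.62 ± 0.037, and 4.67 ± 0.037 in KO). Sod1, the cytosolic copper-zinc enzyme, stood at 165, 164, 168 and 175 CPM in WT control and 103, 107, 116 and 113 CPM with LPS, and fell (-0.61 ± 0.040). Cat, which splits hydrogen peroxide, stood at 554, 559.9, 562 and 548 CPM in WT control and 684, 647, 639.5 and 666 CPM with LPS (0.25 ± 0.032). Sod2 thus moved far more than the other enzymes of its role.

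**Figure D2:**
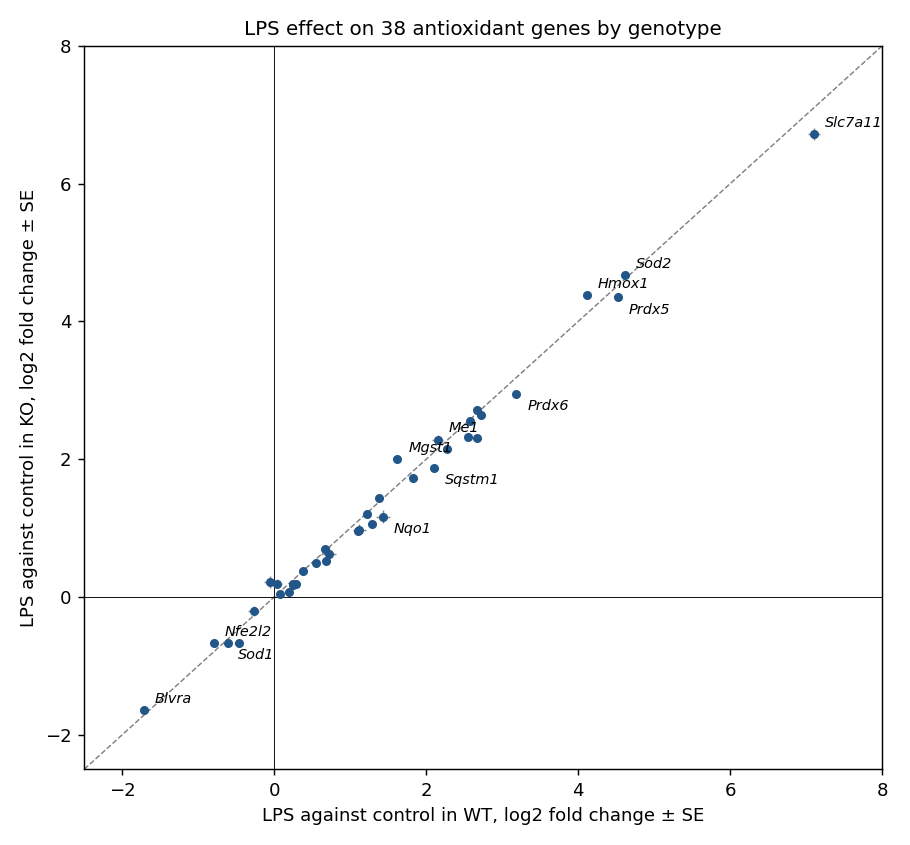
Log2 fold change of each of the 38 genes after LPS against control in WT (horizontal axis) and KO (vertical axis), with a line of equal change. Slc7a11 (7.10 and 6.72), Sod2 (4.62 and 4.67) and Prdx5 (4.52 and 4.35) lie at the upper end and Blvra (-1.71 and -1.64) at the lower end.

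The direction of small LPS changes depended on the scaling of libraries. Without normalization beyond library totals the median of all genes shifted by -0.278 in WT and -0.272 in KO, and the split became 26 genes up and 8 down in WT, with 26 up and 7 down in KO. In WT, Keap1, Txn2, Prdx3 and Cat then lost their calls and Tkt was called lower, at -0.18. In KO, Keap1 was called lower without normalization (-0.16). It was called higher there with RLE size factors (0.109), with DESeq2 (0.109) and on the compared groups alone (0.094). With RLE size factors or DESeq2, 33 of the 38 genes rose and 5 fell in KO. The genes with rises above 1 on the log2 scale kept their calls under each scaling and with DESeq2.

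Among 71 other genes of these pathways, a list written from textbook knowledge, 65 were tested. With LPS in WT 29 of them rose and 25 fell, and in KO 27 rose and 27 fell, with a median of 0.02 in WT. Gsta3 and Gstm2, glutathione transferases, rose by 6.19 and 4.87, and the small MAF gene Maff by 5.28 on the log2 scale in WT. Sesn1, a sestrin, fell by 3.35.

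Dexamethasone alone moved many of the genes by small amounts, mostly downward. In WT 11 of the 38 rose and 22 fell against control, and in KO 11 rose and 20 fell. Over all genes tested, 21.2% were higher and 28.2% lower in WT (49.4% called), and 20.9% higher and 27.6% lower in KO (48.5% called). The 38 genes had a median of -0.19 in WT and -0.16 in KO; that of all genes in WT was -0.02.

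The regulators fell together with dexamethasone. Nfe2l2 stood at 337, 318, 325 and 326 CPM in WT, below all control libraries (-0.37 ± 0.029), and Keap1 at 69.01, 62.8, 65.3 and 62.6 CPM (-0.46 ± 0.040). Sqstm1 stood at 565, 542, 551 and 554 CPM (-0.43 ± 0.034). Their changes in KO were -0.34, -0.47 and -0.43. Hmox1 went the other way, at 586, 585, 566 and 571 CPM in WT and 569, 602, 579 and 574 CPM in KO, with log2 changes of 0.79 ± 0.037 and 0.75 ± 0.037. Every dexamethasone library was above every control library of its genotype. Nqo1 stood at 6.75, 7.27, 5.96 and 6.65 CPM in WT and fell (-0.87 ± 0.10), and Blvra stood at 102, 103, 98.3 and 101 CPM (-0.31 ± 0.048).

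The largest dexamethasone change was in Me1. It stood at 4.94, 5.68, 7.11 and 5.80 CPM in WT and 4.56, 6.54, 6.30 and 6.65 CPM in KO, below all control libraries, with changes of -1.47 ± 0.099 and -1.36 ± 0.097. Of the 5 NADPH genes, 4 fell in each genotype, among them G6pdx (-0.53), Tkt (-0.49) and Pgd (-0.16) in WT. Taldo1 did not pass the threshold, at 284, 281, 272 and 294 CPM (0.0056). Mgst1 had the largest rise, to 83.1, 80.1, 74.2 and 76.96 CPM in WT and 69.6, 68.95, 66.8 and 68.4 CPM in KO, with changes of 0.98 ± 0.048 and 1.12 ± 0.049. Genes of glutathione synthesis did not fall: Gsr rose to 91.7, 83.3, 81.5 and 79.5 CPM (0.57 ± 0.046) and Gclm to 118, 123, 110.4 and 115 CPM (0.42 ± 0.046). In this role 4 of 5 rose in WT and 3 of 5 in KO, and none fell. 

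Peroxiredoxins were divided, 3 higher and 3 lower in WT. Prdx1 stood at 898, 865, 881 and 918 CPM and fell (-0.46 ± 0.038), whereas Prdx5 stood at 111, 104, 108 and 109 CPM and rose (0.30 ± 0.054). Prdx4 changed by -0.73 and Srxn1, at 53.7, 53.3, 57.4 and 54.97 CPM, by -0.68 ± 0.047. Txnrd1 stood at 165, 159, 157 and 156 CPM (-0.39 ± 0.034). Sod1 at 118, 115, 115 and 118 CPM and Cat at 391, 385, 376 and 376 CPM both fell (-0.53 and -0.54). Sod2 did not pass the threshold in either genotype, at 64.03 to 68.8 CPM in WT dexamethasone and 66.2 to 69.00 CPM in control. 

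The KO minus WT difference of the dexamethasone effect passed for 0 of the 38 genes with edgeR and for 0 with DESeq2, and 0% of all genes were called by edgeR. At an unadjusted p under 0.05, 1 of the 38 differed, as did 4.28% of all genes.

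Added to LPS, dexamethasone lowered one set of the genes strongly in WT macrophages and weakly in KO macrophages. Falls and rises here are differences between groups at 24 h and were not followed over time. Against LPS alone, 9 of the 38 rose and 24 fell in WT, while 6 rose and 20 fell in KO. Over all genes tested, 34.6% were higher and 34.5% lower in WT (69.2% called), and 20.8% higher and 17.3% lower in KO (38.1% called). The 38 genes had a median of -0.27 in WT and -0.16 in KO; that of all genes in WT was 0.01. Each of these comparisons lies within 1 lane. The KO minus WT difference of this dexamethasone effect passed for 25 of the 38 genes, 19 with a higher (less negative) value in KO and 6 with a lower one, while 45.4% of all genes passed, 23.9% with a higher and 21.5% with a lower value. That split moved with the scaling, to 17 and 10 with RLE size factors, 16 and 10 without normalization and 17 and 8 with DESeq2.

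Hmox1 showed the largest fall and the largest difference between genotypes. With dexamethasone plus LPS it stood at 673, 655, 656 and 672 CPM in WT, not far above the 566 to 586 CPM with dexamethasone alone, and at 4432, 4833, 4797 and 4327 CPM in KO. All 4 WT libraries lay below all 4 KO libraries. Against LPS alone the change was -3.13 ± 0.039 in WT and -0.64 ± 0.036 in KO, and the difference was 2.49 ± 0.052 (adjusted p = 3.14e-38). Blvra, which LPS had lowered, rose to 74.4, 80.5, 75.2 and 72.97 CPM in WT and 55.3, 51.4, 52.4 and 54.1 CPM in KO (0.99 ± 0.055 and 0.49 ± 0.056). Blvrb fell as well (-1.002 in WT and -0.34 in KO). Nqo1 stood at 16.5, 20.5, 14.6 and 16.3 CPM in WT and 18.8, 18.4, 17.9 and 20.9 CPM in KO, after 21.4, 20.3, 24.5 and 24.03 CPM with LPS in KO, and its changes were -0.95 ± 0.083 and -0.24 ± 0.085.

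Prdx1 and Sqstm1 followed the same course. Prdx1 stood at 1097, 1134, 1037 and 1101 CPM with dexamethasone plus LPS in WT and at 4173, 4241, 4004 and 3651 CPM in KO. The WT libraries were below the control level of 1196 to 1253 CPM, and the KO libraries lay between their control and LPS levels. The changes against LPS were -2.84 ± 0.040 in WT and -0.59 ± 0.037 in KO, with a difference of 2.25 ± 0.054 (adjusted p = 7.91e-36). Sqstm1 stood at 954, 996, 924 and 969 CPM in WT and 2076, 2146, 2028 and 1957 CPM in KO, after 2716, 2819, 2795 and 2776 CPM with LPS in KO. Its changes were -1.73 ± 0.035 and -0.44 ± 0.034, and their difference was 1.30 ± 0.048. Without WT LPS replicate 3 the differences were 2.46 for Hmox1, 2.23 for Prdx1 and 1.25 for Sqstm1.

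Thioredoxin recycling held further genes of this kind. Srxn1 stood at 151, 158, 133 and 151 CPM in WT and 317, 329, 319 and 298 CPM in KO, after 423, 448, 446 and 434 CPM with LPS in KO, and the changes were -1.81 ± 0.042 and -0.47 ± 0.041. Txnrd1 stood at 365, 368, 342 and 359 CPM in WT and 701, 728, 707 and 652 CPM in KO, after 979, 961, 977 and 958 CPM with LPS in KO, and the changes were -1.496 ± 0.032 and -0.47 ± 0.031. For both genes the KO libraries with dexamethasone plus LPS lay above all WT libraries of that treatment and below all KO libraries with LPS alone. The differences between genotypes were 1.33 ± 0.058 for Srxn1 and 1.02 ± 0.045 for Txnrd1. Glrx stood at 198, 194, 205 and 198 CPM in WT and 171, 164, 166 and 164 CPM in KO, and the difference did not pass with TMM (-0.11, adjusted p = 0.143). With RLE size factors Glrx was called lower in KO (-0.14, adjusted p = 0.0482), and without normalization as well (-0.18, adjusted p = 0.0163). Glrx2 and G6pdx gained calls as lower in KO under RLE, without normalization and with DESeq2, and Gpx1 under RLE and without normalization. The calls for Txn1 (-0.13) and Glrx (0.11) in WT were lost without WT LPS replicate 3, as was that of Gstp1, and without it 30 of the 38 genes were called. For the difference between genotypes, Txn1 lost its call without that library (0.15 to 0.094) and Glrx2 gained one (-0.30). Gpx1 in WT moved from 0.39 to 0.24, still called. 

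Glutathione genes divided into 2 kinds. Gclm stood at 179, 205, 166 and 194 CPM with dexamethasone plus LPS in WT and at 358, 380.1, 339 and 331 CPM in KO, after 483, 489, 485 and 474 CPM with LPS in KO, with changes of -1.48 ± 0.042 and -0.46 ± 0.041. Slc7a11 barely moved, at 648, 661, 591 and 645 CPM in WT and 519.5, 529.8, 518 and 513 CPM in KO, with changes of -0.15 ± 0.053 and -0.16 ± 0.053. In WT its groups overlapped, and DESeq2 did not call it (adjusted p = 0.0754). That overlap came from WT LPS replicate 3, and without it the change was -0.24 (adjusted p = 4.33e-07) and no library overlapped. Gsr stood at 394, 416, 383 and 388 CPM in WT and 353, 372, 360.4 and 354 CPM in KO, close to 357 to 366 and 369.8 to 384 CPM with LPS alone. The difference between genotypes was 1.03 ± 0.059 for Gclm and -0.20 for Gsr, and that of Slc7a11 did not pass (-0.0097 ± 0.075, adjusted p = 0.933). Gstm1 stood at 186, 182, 178 and 185 CPM in WT and 397, 366, 374 and 357 CPM in KO, after 495, 477, 521 and 512 CPM with LPS in KO, with changes of -1.42 ± 0.037 and -0.42 ± 0.036. Its WT libraries lay just below those of WT control, a difference that did not pass the threshold (-0.040, adjusted p = 0.348; called without normalization). Mgst1 stood at 90.1, 94.8, 87.99 and 84.6 CPM in WT and 105, 115, 102 and 102 CPM in KO (-0.45 ± 0.044 and -0.25 ± 0.043), and Gstp1 at 15.6 to 17.9 and 15.3 to 18.1 CPM.

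Among the other peroxiredoxins, Prdx6 stood at 203, 214, 189.9 and 209.6 CPM in WT and 317, 336, 333 and 327 CPM in KO, after 406, 421, 426 and 397 CPM with LPS in KO (-1.32 ± 0.039 and -0.33 ± 0.038). Prdx5 stayed high, at 1513, 1539, 1449.6 and 1477 CPM in WT and 1682, 1646, 1581 and 1583 CPM in KO (-0.43 ± 0.047 and -0.070, the second not past the threshold). Prdx3 moved the opposite way, from 37.7, 40.3, 42.3 and 41.9 to 75.7, 79.4, 74.7 and 76.1 CPM in WT and from 37.8, 37.9, 38.4 and 41.3 to 46.6, 50.4, 50.3 and 53.9 CPM in KO. Its rises were 0.92 ± 0.048 and 0.37 ± 0.050, with a difference of -0.54 ± 0.069. Txn2, the mitochondrial thioredoxin that reduces Prdx3, rose by 0.65 in WT and 0.26 in KO. The genes with a larger rise in WT than in KO were Blvra, Nfe2l2, Prdx3, Tkt and Txn2, and Gsr was called in that direction too.

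**Figure D3:**
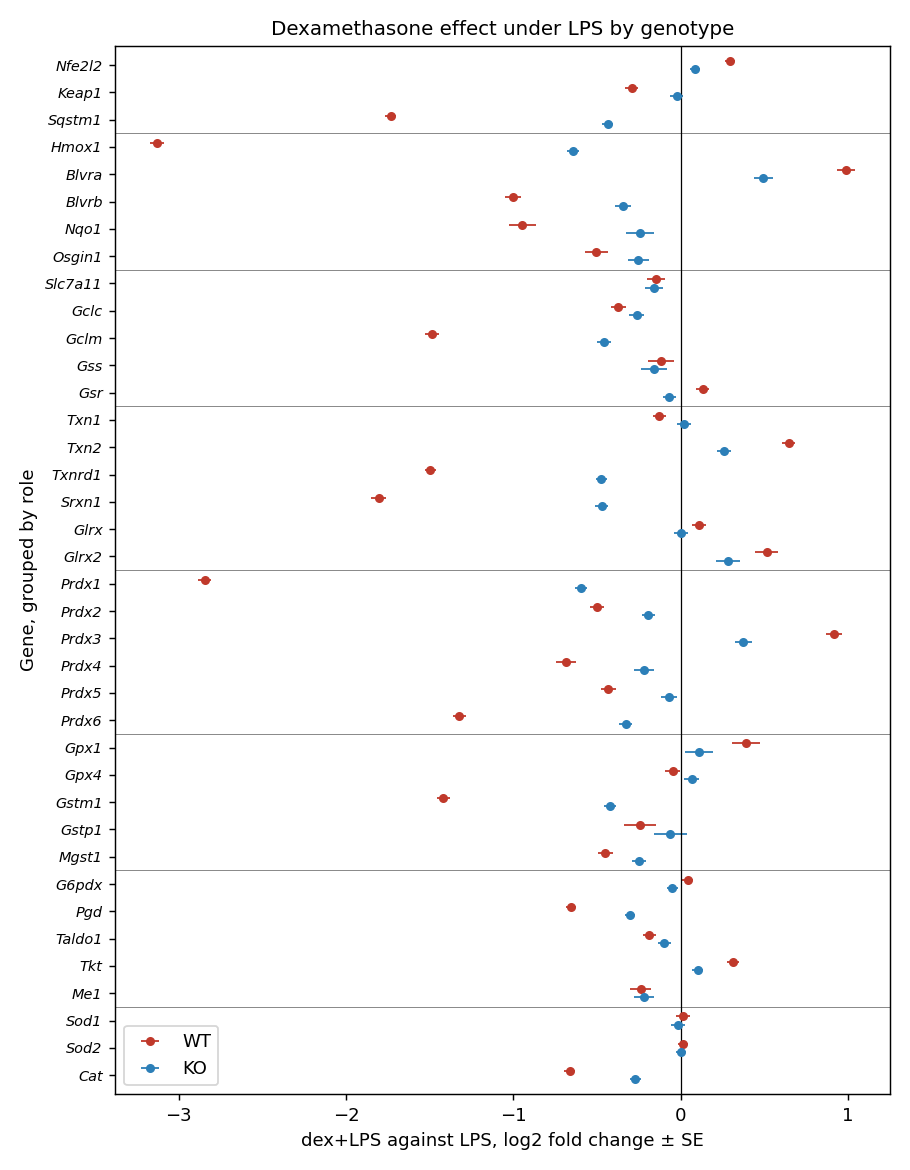
Log2 fold change of each of the 38 genes for dexamethasone plus LPS against LPS alone (horizontal axis, bars for the SE), with genes by role on the vertical axis, WT in red and KO in blue. Hmox1 (-3.13 and -0.64), Prdx1 (-2.84 and -0.59), Srxn1 (-1.81 and -0.47) and Sqstm1 (-1.73 and -0.44) have their WT points far to the left of their KO points, so their fall was smaller in KO.

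The regulators, NADPH enzymes and dismutases moved less. Nfe2l2 stood at 300.2, 295, 304 and 299 CPM in WT and 285, 279.8, 281 and 277 CPM in KO (0.29 ± 0.029 and 0.087 ± 0.029). The KO call for Nfe2l2 was lost with RLE size factors, with DESeq2 and without the filter. It was also lost at an adjusted p under 0.01 and without KO LPS replicate 2 (0.070). Keap1 stood at 81.9, 83.3, 82.7 and 83.4 CPM in WT and 95.8, 94.6, 95.1 and 101 CPM in KO (-0.29 ± 0.039, and -0.024 in KO, not past the threshold). Pgd stood at 849, 879, 821 and 868 CPM in WT and 1053, 1078, 1007 and 1010.3 CPM in KO (-0.65 ± 0.030 and -0.30 ± 0.030), and Me1 at 60.7, 66.3, 56.1 and 62.2 and 68.9, 68.97, 63.7 and 58.1 CPM. Taldo1 ranged over 379.9 to 409 CPM in WT and 362 to 382 CPM in KO. Cat fell to 422, 429, 387 and 426 CPM in WT and 525, 513, 498 and 489 CPM in KO (-0.66 ± 0.033 and -0.27 ± 0.032). Sod2 did not pass in either genotype: it stood at 1665, 1685, 1704 and 1647 CPM in WT and 1676, 1631, 1625 and 1612 CPM in KO, and the difference was -0.011 ± 0.043 (adjusted p = 0.86). Sod1 ranged over 101 to 116 CPM in both genotypes with dexamethasone plus LPS and 96.5 to 116 CPM with LPS.

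Dexamethasone acted on many of the genes differently with LPS than without it. In WT the effect with LPS minus that without passed for 30 of the 38 genes, 12 higher and 18 lower, against 60.4% of all genes (32% higher and 28.4% lower). In KO it passed for 25, 13 higher and 12 lower, against 41.8% (25.7% higher and 16.2% lower). Without WT LPS replicate 3 the WT count was again 30, 12 higher and 18 lower. Hmox1 reversed, since dexamethasone raised it alone and lowered it under LPS, and the difference of effects was -3.92 ± 0.054 in WT and -1.40 ± 0.052 in KO. For Prdx1 these values were -2.38 ± 0.054 and -0.20 ± 0.053. For Me1 they were 1.23 ± 0.12 and 1.14 ± 0.12, since the fall of Me1 was smaller under LPS. 

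Against untreated cells, dexamethasone plus LPS still left most genes raised. In WT 28 of the 38 were higher and 8 lower than in control, with 72.3% of all genes called (34.5% higher and 37.8% lower). In KO 30 were higher and 5 lower, with 74% called (37.5% higher and 36.5% lower). Lane differed between these KO groups, as it did for LPS alone against control in KO. The medians were 0.49 in WT and 0.81 in KO. Slc7a11 (6.96 and 6.56), Sod2 (4.63 and 4.67) and Prdx5 (4.09 and 4.28) were the highest above control in WT. Prdx1 was slightly below control in WT (-0.17) and above it in KO (1.71), and Hmox1 was 0.99 above control in WT and 3.74 in KO.

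Without LPS the genotypes were close. KO against WT passed for 1 of the 38 genes in control and for 1 with dexamethasone, and it was Mgst1, lower in KO, both times. Of all genes 0.541% passed in control (0.298% lower) and 0.901% with dexamethasone (0.36% lower). Mgst1 stood at 37.7, 43.97, 38.2 and 39.04 CPM in WT control and 30.04, 32.7, 32.4 and 30.5 CPM in KO control, where the KO libraries were lower without overlap (-0.34 ± 0.052, adjusted p = 8.99e-05). With dexamethasone the difference was -0.20 ± 0.046 (adjusted p = 0.013), a call that was lost on lane 3 libraries alone and on leaving out WT dexamethasone replicate 1 or 2 or KO dexamethasone replicate 3. Hmox1, Prdx1 and Sqstm1, which differed most under dexamethasone plus LPS, had KO minus WT values of 0.042 ± 0.038, -0.0013 ± 0.038 and 0.022 ± 0.034 in control. In KO control, Nfe2l2 stood at 427, 414, 431 and 407 CPM, Keap1 at 96.2, 93.8, 90.6 and 92.6 CPM and Sqstm1 at 743, 746, 778 and 754 CPM.

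With LPS alone 16 of the 38 genes differed between genotypes, 2 higher and 14 lower in KO, against 10.2% of all genes (4.66% higher and 5.51% lower). The largest was Nqo1, at 30.2, 32.1, 34.6 and 34.6 CPM in WT and 21.4, 20.3, 24.5 and 24.03 CPM in KO (-0.54 ± 0.081). Prdx1 (-0.37 ± 0.037) and Prdx6 (-0.31 ± 0.038) were lower and Hmox1 (0.31 ± 0.036) higher in KO. Nfe2l2, the other gene called higher, stood at 240.1 to 248 CPM in WT and 255 to 272 CPM in KO. Its call was lost without the filter (0.11) and on the compared groups alone (0.12). The LPS effect itself differed for 7 genes, 2 with a higher and 5 with a lower value in KO, against 3.72% of all genes (2.07% higher and 1.64% lower): Hmox1 and Mgst1 were higher, and Gclc, Prdx1, Prdx6, Sqstm1 and Srxn1 lower. That split was 3 higher of 7 without normalization and 3 of 8 with DESeq2. Nfe2l2 was the gene gained on the higher side in both runs (0.141 and 0.135). Gclc lost its call with RLE size factors and without normalization. A lane term was also fitted, which rests on a single KO dexamethasone library in lane 2. With it 2 of the 38 genes remained for KO against WT (1 higher and 1 lower), Hmox1 (0.33) and Prdx1 (-0.34). For the difference of LPS effects 1 remained, Prdx1 (-0.37). Over all genes the calls went from 1468 to 112 for KO against WT and from 536 to 113 for the difference. Every gene of the 38 that lost its call kept its sign, and the standard errors were larger with the term. Nqo1 went from -0.54 ± 0.081 to -0.78 ± 0.20 (adjusted p = 0.0536), Slc7a11 from -0.28 ± 0.053 to -0.67 ± 0.20 and Prdx6 from -0.31 ± 0.038 to -0.18 ± 0.081. The difference of LPS effects for Mgst1 went from 0.38 ± 0.068 to 0.36 ± 0.11 (adjusted p = 0.0991). Without WT LPS replicate 3, Gclc, Txn1 and Prdx4 lost their calls in KO against WT and Gclm gained one, and Prdx5 moved from -0.24 to -0.14, still called. For the difference of LPS effects Gclc lost its call while Slc7a11 (-0.47) and Txnrd1 (-0.14) gained one. The difference of LPS effects for Prdx6 was no longer called without KO control replicate 2 (-0.20).

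With dexamethasone plus LPS, 29 of the 38 genes differed between genotypes, 17 higher and 12 lower in KO, against 56.4% of all genes (28.5% higher and 27.9% lower). Hmox1 was 6.92-fold higher in KO (log2 2.79 ± 0.039), Prdx1 3.68-fold (1.88 ± 0.039), and Sqstm1, Srxn1 and Gstm1 by 1.09, 1.09 and 1.03 on the log2 scale. Prdx3 (-0.60 ± 0.047), Blvra (-0.51 ± 0.052) and Txn2 (-0.39 ± 0.040) were lower in KO. With the lane term 21 of the 38 genes passed, 14 higher and 7 lower, while the calls over all genes went from 8137 to 4834. The values with that term were 2.81 for Hmox1 and 1.91 for Prdx1. The difference of the dexamethasone effect under LPS, whose terms each lie within 1 lane, was 2.48 for Hmox1 and 2.25 for Prdx1 with that term. Markers of several cell types moved with these groups as well. Summed neutrophil markers were 11.2 to 13.9 CPM in WT and 5.21 to 6.03 CPM in KO with dexamethasone plus LPS, made up of S100a8 (group means 11.9 and 4.33 CPM) and Camp (0.729 and 1.195 CPM). The other defining neutrophil genes Ly6g, Mpo and Elane were below 0.1 CPM in every group mean. Summed dendritic cell markers were 0.708 to 1.27 CPM in WT and 6.81 to 9.71 CPM in KO, mostly Ccr7. Summed macrophage markers were 30890 to 31850 and 23000 to 23690 CPM, a gap that followed Lyz2 (20950 and 12530 CPM), while Csf1r (3041 and 3384 CPM), Cd14 (1533 and 1856 CPM) and Fcgr1 (74.3 and 195.5 CPM) were higher in KO. Their part in the result was not tested. Acod1 RNA with dexamethasone plus LPS was 2708 to 2783 CPM in WT and 3670 to 4119 CPM in KO, after 6125 to 6675 and 4898 to 5187 CPM with LPS alone, so it was higher in KO than in WT there (0.52 ± 0.041, adjusted p = 7.56e-16) and lower in KO with LPS alone (-0.38 ± 0.040).

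**Figure D4:**
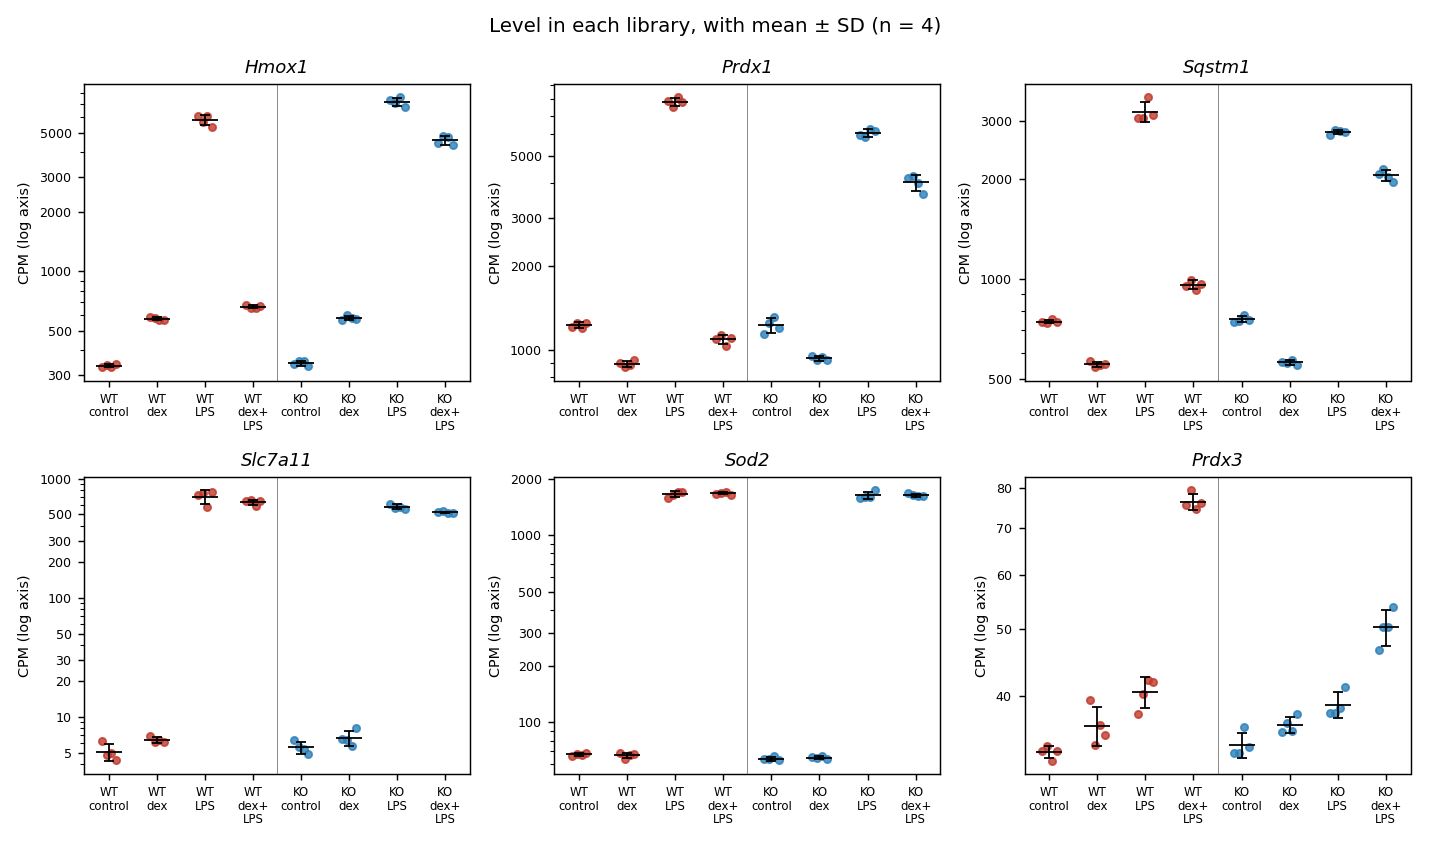
Level of 6 of the 38 genes in each library in CPM on a log axis, with bars for the mean ± SD of the 4 libraries of a group (WT on the left, KO on the right of each panel). Hmox1, Prdx1 and Sqstm1 fall further with dexamethasone plus LPS in WT than in KO, Slc7a11 and Sod2 stay near their LPS level, and Prdx3 rises to 74.7 to 79.4 CPM in WT.

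Other genes of these pathways were split under the same comparison. Of the 65 tested, 29 rose and 26 fell in WT with dexamethasone plus LPS against LPS, and 20 rose and 16 fell in KO. Gstm2 fell by 3.03 and Gstt1, also a glutathione transferase, by 1.94 in WT on the log2 scale. The KO minus WT differences of that effect were 2.46 for Gstm2, 1.58 for Gstt1, 1.09 for the glutathione conjugate exporter Abcc1 and 1.04 for the aldo-keto reductase Akr1b8. Ggt5, a gamma-glutamyl transferase, rose by 3.42 in WT and 1.62 in KO.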

How the data were processed

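The samples were 32 messenger RNA libraries, 4 for each of 8 groups of mouse bone marrow-derived macrophages, grouped and numbered by their labels. The deposited values are raw counts of read pairs per gene, made by the authors, per the file headers, with featureCounts 2.0.0 over exons, without strand, on the GENCODE vM32 annotation. The same deposited table gives the summed exon length of each gene in bases, another value of the authors' counter, used here for CPM per kb. The submitters' processing notes name STAR, whose version is not given in the sources used here, together with GRCm38, while vM32 belongs to a later build, so gene positions are those of the table and promoters those of RefSeq on GRCm38.p6. Symbols came from a GENCODE name table, in which 52029 of 56953 identifiers matched.

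The 38 genes and the list of 71 others were chosen with earlier results of these data known. Counts were filtered with filterByExpr of edgeR 4.0.16 (R 4.3.3), scaled by TMM, and fitted as 8 group means with edgeR's quasi-likelihood model (24 residual degrees of freedom, biological coefficient of variation 4.36%). 17 contrasts were tested, two-sided, with Benjamini-Hochberg adjustment over 14427 genes and a threshold of 0.05. Errors beside log2 fold changes are standard errors derived from the F statistic. The alternatives tried were DESeq2 1.42.0, RLE size factors, library totals without normalization, no filter, a threshold of 0.01, the compared groups alone, a replicate block, a lane term, lane 3 alone, and each library left out in turn. The test of LPS against control in WT was checked on simulated data with 200 changed genes. Of 93 genes changed 2-fold 92.47% were recovered, and of 93 changed 1.5-fold 72.04%, with 5 false calls.

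Library values are printed for Nfe2l2, Keap1 and up to 3 genes per role with the largest called changes, 24 genes, in the groups their results turn on, and ranges or means elsewhere. Prdx3 was added after its values were seen. All 48 replicate pairs differed by more than sampling noise, so none was merged.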

Additional observations from a re-analysis of the deposited data

Results flagged for a closer look

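For 24 of the genes in 8 groups, 192 groups of 4 libraries were examined, and in 11 the highest or lowest library lay far from the other 3 by Dixon's test; chance gives about 1 in 20. The single library was high for Sqstm1 in WT LPS replicate 3 (3533 CPM), Blvra in KO LPS replicate 4 (41.3 CPM), Glrx in WT dexamethasone replicate 4 (29.8 CPM) and Txnrd1 in WT control replicate 4 (215.2 CPM). It was also high for Gstp1 in WT dexamethasone replicate 4 (10.3 CPM), Pgd in WT control replicate 3 (582.5 CPM) and WT dexamethasone replicate 1 (547.6 CPM), and Taldo1 in KO dexamethasone replicate 1 (279.2 CPM). It was low for Gstp1 in KO control replicate 1 (9.86 CPM), Me1 in KO dexamethasone replicate 1 (4.56 CPM) and Cat in WT dexamethasone plus LPS replicate 3 (386.9 CPM).

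Effects that differed between genotypes by the test of the difference in edgeR are given as KO minus WT on the log2 scale. For the LPS effect they were Sqstm1 -0.22, Hmox1 0.26, Gclc -0.22, Srxn1 -0.24, Prdx1 -0.37, Prdx6 -0.24 and Mgst1 0.38. Of these, Gclc was not called with RLE size factors or without normalization. KO libraries with LPS were in another lane than the other 3 groups of this contrast, apart from the merged KO control library, and the part of the lane was tested only through 1 library.

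For the dexamethasone effect under LPS the largest values were Hmox1 2.49, Prdx1 2.25, Srxn1 1.33, Sqstm1 1.30, Gclm 1.03, Txnrd1 1.02, Prdx6 1.00 and Gstm1 1.00. Smaller positive values were those of Nqo1 0.70, Blvrb 0.66, Prdx4 0.47, Cat 0.39, Prdx5 0.36, Pgd 0.35, Prdx2 0.31, Keap1 0.27, Osgin1 0.25, Mgst1 0.20 and Txn1 0.15. Negative values were those of Prdx3 -0.54, Blvra -0.49, Txn2 -0.39, Tkt -0.21, Nfe2l2 -0.21 and Gsr -0.20. Of these, Osgin1 and Txn1 were not called with RLE size factors, without normalization or with DESeq2, and Mgst1 was not called without normalization. Without WT LPS replicate 3, Txn1 was 0.094 and not called (adjusted p = 0.114).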

How the results depend on the processing

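Counts of called genes among the 38 stayed within 1.5 times of the reported value in every alternative run, except in 3 comparisons. KO against WT with dexamethasone gave 1 gene as reported, 0 at an adjusted p under 0.01, 2 without the filter and 2 on the compared groups alone. It gave 0 on lane 3 libraries alone, and 0 to 1 with each library left out in turn. Over all genes the calls were 130 as reported, 62 at an adjusted p under 0.01 and 201 without the filter. They were 401 on the compared groups alone and 82 on lane 3 libraries alone. KO against WT with LPS gave 16 genes as reported, 9 on the compared groups alone and 2 with the lane term. Over all genes these runs called 1468, 667 and 112. The difference of LPS effects gave 7 genes as reported, 4 at an adjusted p under 0.01 and 1 with the lane term. Its calls over all genes were 536, 260 and 113 in that order. For KO against WT with LPS, and for the LPS effect's difference, the cause of the lower count with the lane term was not tested; that fit leaves out the merged library. Lane 3 alone gives no value where KO libraries with LPS are needed. Without normalization the sign changed for Keap1 after LPS (-0.068 in WT and -0.16 in KO), after dexamethasone plus LPS against LPS in KO (0.0055) and against control in KO (-0.16), and for Nfe2l2 in KO against WT control (0.0026). That setting shifted the median of all genes by -0.278 and -0.272 after LPS in WT and KO, by 0.104 for dexamethasone plus LPS against LPS in WT, and by -0.201 and -0.213 for both against control. With each library left out in turn, the difference of dexamethasone effects for Keap1 ranged from -0.029 to 0.018 and the KO against WT control value for Nfe2l2 from -0.023 to 0.0044; neither passed the threshold. The replicate block was checked since groups share replicate numbers: in 0 of 28 pairs of groups did all same-numbered libraries deviate together (correlation over 0.1; lowest -0.0287), so the numbers do not pair libraries. With the block, 36 of the 38 genes were called after LPS in WT and 33 for dexamethasone plus LPS against LPS in WT. The same run called 17 for KO against WT with LPS and 27 for the difference of dexamethasone effects under LPS. Over all genes it called 10936, 9976, 1545 and 6575 in that order. Low levels limit precision for Slc7a11 without LPS, where libraries held 4.38 to 8.09 CPM. The same holds for Me1 with dexamethasone alone, at 4.56 to 7.11 CPM.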
